A study of Mus musculus with 2 samples.

Results

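Metabolic-high brown adipocytes are here a range of nuclei, cut from a score of 13 transcripts, in single-nucleus RNA profiles of mouse brown adipose tissue. The group held 3881 of the 11638 barcodes that passed a brown adipocyte gate, of 29175 barcodes in all. The tissue came from mice of 4 weeks, and each genotype gave 1 droplet library (10x Genomics 3' v3 chemistry, 8000 nuclei targeted). One library is labelled KO, from Nfe2l1(f)-KO mice, and the other is labelled Flox, from mice whose genotype is given as Flox. The labels name neither the Cre driver, nor the deleted part of the gene, nor the number of mice behind a library, nor their sex. Nfe2l1 encodes NFE2L1, also called NRF1, a transcription factor of the endoplasmic reticulum that is known to drive proteasome genes.

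Brown adipocytes burn fatty acids and glucose to make heat, through the uncoupling protein UCP1 in their mitochondria. They also build triglyceride from glucose and fatty acids: hexokinase 2 (Hk2) traps glucose, glycerol-3-phosphate dehydrogenase (Gpd1) supplies the glycerol backbone, and DGAT2 (Dgat2) adds the last acyl chain. These enzymes are 3 of the 7 transcripts on the metabolic side of the score.

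A barcode passed the gate with at most 10% mitochondrial UMIs, with Ppara and Cidea together at 0.3% of its UMIs or more, and with at most 1 of 8 genes of other lineages detected (Flt1, Cyyr1, Col6a3, Dcn, F13a1, Mrc1, Ttn and Abcc9). It also had fewer than 3 detected of 6 interferon-linked genes (Gbp11, Gm4841, Iigp1, Gbp2, Gbp6 and Gbp7) and fewer than 3 of 4 other fat genes (Slc7a10, Trhde, Retn, Agt). The score was log2((A + 1)/(B + 1)). A was the sum of UMIs of Fgf14, Erbb4, Nol4l, Slc24a3, Med12l and Ntrk3, and B that of Aspg, Pmepa1, Acot11, Gpd1, Dgat2, Hk2 and Slc25a42. The metabolic-high group was the lowest tertile of the score over both libraries, at -0.0857 or below. It is set here against the opposite tertile, called Fgf14-high (3880 barcodes), with the middle tertile (3877) between them.

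The members were chosen by the UMIs of these genes in the same barcodes, so their levels describe the choice and support nothing. Levels are in CPM: UMIs of 1 gene, summed over the barcodes of a group, were scaled to a common total. Dgat2 stood at 3096 CPM in metabolic-high barcodes of the library labelled KO and 2839 CPM in those of the library labelled Flox, against 1563 and 1287 CPM in Fgf14-high barcodes. Pmepa1, an inhibitor of TGF-beta signalling, stood at 548 CPM in KO and 407 CPM in Flox, against 202 and 117 CPM in Fgf14-high barcodes. Hk2 stood at 895 CPM in KO and 549 CPM in Flox, against 406 and 341 CPM, and Gpd1 at 1350 and 1497 CPM, against 641 and 710.1 CPM. The other 3 B genes had log2 ratios of 0.61 to 1.15. Fgf14, on the other side of the score, stood at 223 CPM in KO and 268 CPM in Flox, against 592 and 581 CPM. Erbb4, a neuregulin receptor gene, stood at 1122 CPM in KO and 985 CPM in Flox, against 2552 and 1942 CPM, and the other 4 A genes had log2 ratios of -1.07 to -0.50. The median metabolic-high barcode had 5 of the 7 B genes detected in either library, but also 3 of the 6 A genes.

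No gap in the score marked the boundary. The last barcodes inside had 48 A and 51 B UMIs, and the first outside had 32 and 34 (score -0.0849). Of all gated barcodes, 2362 (20.3%) lay within 0.25 of the boundary and 1119 (9.62%) within 0.1.

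A larger share of gated barcodes fell below the pooled boundary in the library labelled KO. Metabolic-high barcodes were 41.9% of gated barcodes in KO (2541 of 6069, 95% Clopper-Pearson interval 40.6 to 43.1) and 24.1% in Flox (1340 of 5569, 22.9 to 25.2), a ratio of 1.74 (1.63 to 1.86). Fgf14-high barcodes were 23.6% in KO (1431) and 44.0% in Flox (2449), and the middle tertile 34.6% and 32.0%. Of all barcodes, metabolic-high ones were 19.5% in KO and 8.30% in Flox. Genes of the score themselves differed between libraries within a tertile. In Fgf14-high barcodes the KO over Flox ratio was 1.73 for Pmepa1 (B) and 0.58 for Nol4l (A). Gpd1 (B, 0.90) and Erbb4 (A, 1.31) lay the other way. The tertile of a barcode follows these levels, and their part in the shares was not tested. With 1 library per genotype there was no test, here or below. All intervals are at 95% and cover counting error only, not the spread between nuclei or mice, and molecules of 1 nucleus are not independent.

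**Figure D1:**
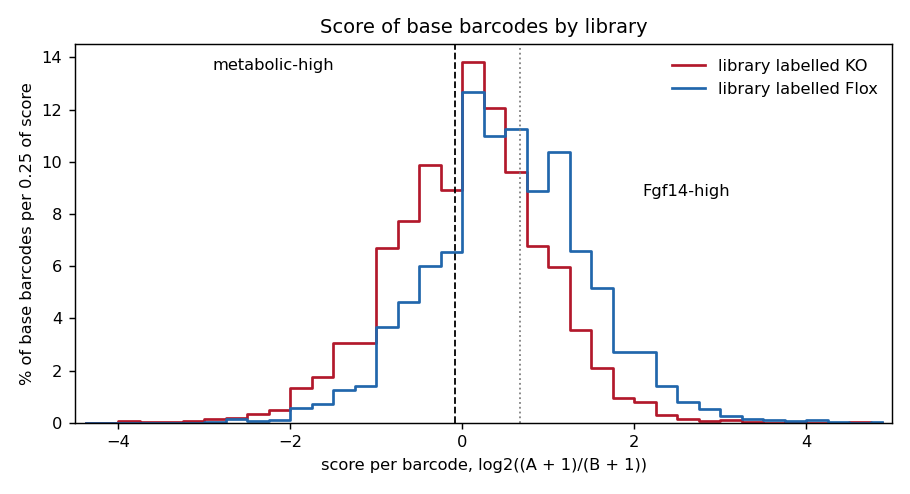
Distribution of the score per barcode (x axis, log2 scale) in the 6069 gated barcodes of the library labelled KO (red) and the 5569 of the library labelled Flox (blue), as percent of each library per 0.25 of score. The dashed line marks the upper end of the metabolic-high tertile at -0.0857 and the dotted line the lower end of the Fgf14-high tertile; the KO curve lies further to the left, with 41.9% of its barcodes left of the dashed line against 24.1% in Flox.

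The libraries held 13030 barcodes with 43080725 UMIs (KO) and 16145 with 46528077 UMIs (Flox), and 65 barcodes occurred in both, with 0 of them metabolic-high in both. Metabolic-high barcodes were shallower than the others: medians were 2511 UMIs in KO and 2487 in Flox, against 3362 and 2821 in Fgf14-high barcodes. Their median share of mitochondrial UMIs was 1.13% in KO and 0.444% in Flox, against 0.974% and 0.443%. After each barcode was thinned to 1000 UMIs before the rule was applied, 40.6% of gated barcodes in KO and 26.8% in Flox were metabolic-high. Of these, 60.2% in KO and 48.5% in Flox were also members at full depth. The gate was applied again after thinning and then held 7049 barcodes in KO and 7047 in Flox, so these shares mix barcodes that entered at the gate with barcodes that changed tertile.

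Markers of brown adipocytes were abundant in these nuclei. All 12 adipocyte markers had UMIs, with a summed level of 23457 CPM in KO and 22655 CPM in Flox. The 10 brown adipocyte markers summed to 18046 CPM in KO and 18238 CPM in Flox, although Ppara and Cidea among them chose the gate. Other-lineage barcodes, with 2 or more of the 8 genes and no Ppara or Cidea UMI (1213 in KO and 1759 in Flox), had 436 and 586 CPM of the brown list, of which those 2 genes are 0 by choice. The median metabolic-high barcode had 0 UMIs of each of 7 other marker lists (fibroblast/progenitor, endothelial, macrophage/monocyte, skeletal muscle, Schwann, T/NK and erythroid). Pericyte/smooth muscle markers summed to 368 CPM in KO and 483 CPM in Flox, against 343 and 436 CPM in Fgf14-high barcodes.

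Low levels of other markers were still present. Fibroblast/progenitor markers summed to 278 CPM in KO and 294 CPM in Flox, against 207 and 213 CPM in Fgf14-high barcodes and 6254 and 5400 CPM in other-lineage barcodes. Their median log2 ratio of metabolic-high over Fgf14-high was 0.48 in KO (9 of 11 measured genes above 0) and 0.63 in Flox (10 of 10). Skeletal muscle markers summed to 119.5 CPM in KO and 294 CPM in Flox, against 95.4 and 214 CPM, with a median of 0.56 in each library. Endothelial markers summed to 214 CPM in KO and 256 CPM in Flox, against 264 and 296 CPM. Macrophage/monocyte markers summed to 233 and 260 CPM, against 219 and 273 CPM. The median log2 ratios over measured genes were nonetheless above 0 for both lists. Endothelial markers had 0.45 in KO (6 of 7 above 0) and 0.44 in Flox (8 of 11). Macrophage/monocyte markers had 0.49 in KO (4 of 4) and 0.80 in Flox (3 of 5). The part of these markers in the results below was not tested, and the level of a named gene in other-lineage barcodes is given where it is high.

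Metabolic-high and Fgf14-high nuclei shared most of their transcriptome beyond the 13 genes. A gene was counted with at least 50 UMIs over the groups compared, and ratios were taken with 0.5 UMI added. Of 10162 genes counted in KO, 52 (0.512%) were at least 2-fold higher in metabolic-high than in Fgf14-high barcodes and 8 (0.0787%) at least 2-fold lower. In Flox, of 10262 genes, 56 (0.546%) were higher and 64 (0.624%) lower. The groups compared were not of equal depth. Metabolic-high barcodes held 7237512 UMIs in KO and 3800018 in Flox, and Fgf14-high ones 5387839 and 7910207. Of 9983 genes counted in both libraries, 2 were at least 2-fold higher in both (0.02%) and 1 at least 2-fold lower (0.01%). The 2 higher ones, Cxcl13 (5.80 CPM in KO and 7.11 CPM in Flox) and Sult5a1 (6.91 and 6.84 CPM), were rare here and more abundant in other-lineage barcodes (59.1 to 192 CPM). The lower one was Lrriq3, at 8.98 CPM in KO and 11.8 CPM in Flox against 18.9 and 24.4 CPM. At 1.5-fold, 49 genes (0.491%) were higher in both libraries and 17 (0.17%) lower. In both libraries, 30 of the 49 were more abundant in other-lineage barcodes than in either of the 2 tertiles.

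By the rule for named genes, 7 genes of at least 20 CPM that were not more abundant outside the gate stood at least 1.5-fold higher in metabolic-high barcodes of both libraries. Fam20c, the Golgi kinase that phosphorylates secreted proteins, stood at 49.2 CPM in KO (44.2 to 54.6, 356 UMIs) and 111 CPM in Flox (101.0 to 122, 423 UMIs), against 30.3 and 49.6 CPM in Fgf14-high barcodes. The middle tertile lay between, at 35.8 CPM in KO and 91.8 CPM in Flox. Tfrc, the transferrin receptor that brings iron into cells, stood at 258 CPM in KO and 449 CPM in Flox, against 160 and 252 CPM. Agpat2, an acyltransferase on the path to triglyceride, stood at 180 CPM in KO and 176 CPM in Flox, against 120 and 107 CPM. Its middle tertile had 148 and 154 CPM.

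The other 4 were Ampd2, an AMP deaminase, Ckb, the brain-type creatine kinase, Zfp598, a ubiquitin ligase of stalled ribosomes, and Traf4, a signalling adaptor. Their log2 ratios lay between 0.59 and 0.75 in both libraries. Ampd2 stood at 110 CPM in KO and 106 CPM in Flox, against 70.3 and 70.4 CPM in Fgf14-high barcodes. One gene met the same rule in the other direction: Glrx, which encodes a glutaredoxin, stood at 16.6 CPM in KO and 18.4 CPM in Flox, against 25.2 and 36.2 CPM.

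**Figure D2:**
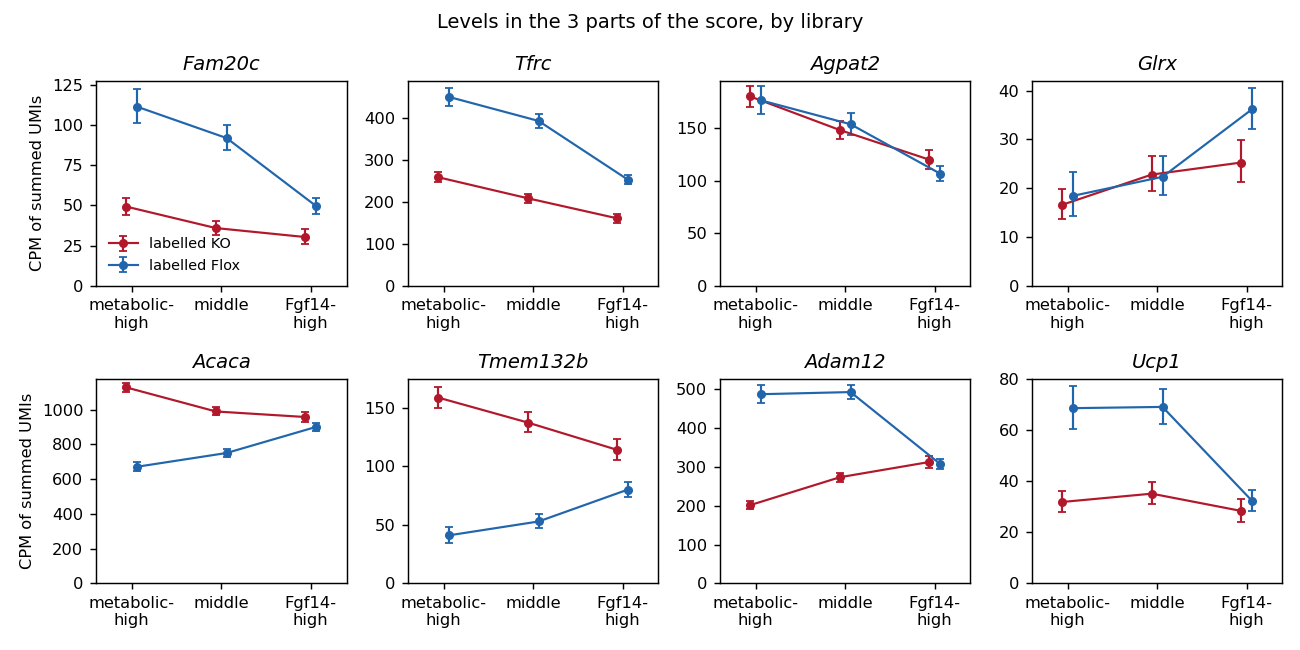
Levels (y axis, CPM of summed UMIs, from 0) of 8 genes in the metabolic-high, middle and Fgf14-high tertiles (x axis), in the libraries labelled KO (red) and Flox (blue); bars are exact 95% Poisson intervals of the counts. Fam20c, Tfrc and Agpat2 are highest in the metabolic-high tertile of both libraries and Glrx is lowest there, while Acaca and Tmem132b run in opposite directions along the score in the 2 libraries. Adam12 is lowest in the metabolic-high tertile in KO and in the Fgf14-high tertile in Flox, and Ucp1 in Flox is at 68.7 and 69.2 CPM in the metabolic-high and middle tertiles and 32.4 CPM in the Fgf14-high tertile.

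Most glucose uptake and glycolysis genes outside the rule were somewhat higher at the metabolic end. For glucose uptake and glycolysis, the median log2 ratio of metabolic-high over Fgf14-high was 0.23 in KO (18 of 20 above 0) and 0.21 in Flox (13 of 19), beside 0.05 and 0.02 over all genes, of which 58.3% and 53.9% were above 0. The members furthest down were Hk1 and Pfkm in KO and Pfkm and Pfkp in Flox. Trarg1, which promotes GLUT4 traffic, stood at 205 CPM in KO and 135 CPM in Flox, against 150 and 84.4 CPM. Slc2a4, the GLUT4 transporter itself, stood at 242 and 258 CPM, against 203 and 184 CPM. Pfkfb3, a regulator of phosphofructokinase, stood at 618 CPM in KO and 530 CPM in Flox, against 480 and 418 CPM. Trarg1 in Flox was the only one of these genes to reach 1.5-fold, and 0 did in KO; over all genes 3.58% in KO and 3.72% in Flox were that much higher.

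Other metabolic lists differed less evenly. Pyruvate and TCA cycle genes had medians of 0.09 in KO and 0.21 in Flox, with 18 and 20 of 24 above 0. Respiratory chain genes had 0.12 in KO (21 of 28 above 0) and 0.29 in Flox (26 of 28), with Atp5d, a subunit of ATP synthase, at log2 0.40 and 0.56. Triglyceride assembly had 0.12 and 0.21, led in each library by Agpat2 and Gpat3, acyltransferases of that path. Fatty acid oxidation had 0.06 in each library, and lipolysis and lipid droplet genes 0.07 and 0.11. The size of every one of these medians was under the 1.5-fold used for single genes.

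Fatty acid synthesis genes went with the score in 1 library and not in the other. Their median log2 ratio was 0.28 in KO (11 of 14 above 0) and -0.00 in Flox (7 of 14). Acaca, acetyl-CoA carboxylase, stood at 1128 CPM in metabolic-high and 958 CPM in Fgf14-high barcodes of KO (log2 ratio 0.24), but at 672 and 901 CPM in Flox (-0.42). Acly, ATP citrate lyase, had log2 ratios of 0.37 in KO and -0.32 in Flox. Srebf1, the sterol-responsive factor of lipid synthesis, had 0.61 and 0.32, and Mlxipl, the glucose-responsive factor ChREBP, 0.32 and 0.36. The difference between libraries was not tested.

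Among secreted factors, Vegfa, the vascular growth factor, stood at 2219 CPM in metabolic-high barcodes of KO and 1945 CPM in those of Flox, against 1657 and 1489 CPM in Fgf14-high ones. Nrg4, a neuregulin released by brown fat, stood at 1838 CPM in KO and 1749 CPM in Flox, against 1702 and 1220 CPM. The list had a median of 0.12 in KO (11 of 12 above 0) and 0.38 in Flox (9 of 12). Rbp4, a retinol carrier, had 0.40 in KO and -0.21 in Flox, and Metrnl, the meteorin-like hormone, -0.21 and 0.40, with intervals that include equal levels for both genes in each library. Signalling lists stood near the median of all genes: adrenergic and cAMP genes had -0.05 in KO and 0.05 in Flox, insulin signalling -0.01 and 0.04, adipogenic factors -0.01 and -0.10, and the proteasome 0.08 and -0.04.

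**Figure D3:**
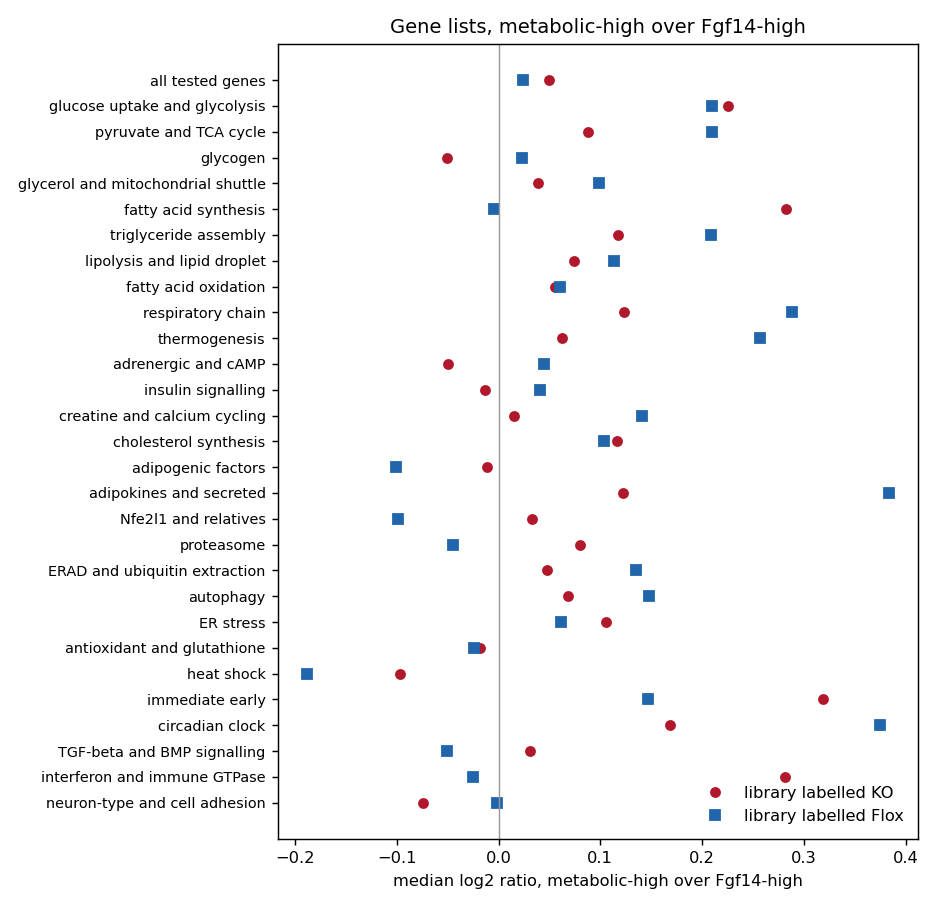
Median log2 ratio of metabolic-high over Fgf14-high barcodes (x axis) for all tested genes and 28 gene lists (y axis), in the library labelled KO (red circles) and the library labelled Flox (blue squares); genes of the rule are left out. Glycolysis is at 0.23 and 0.21, while the circadian clock (0.17 and 0.37) and fatty acid synthesis (0.28 and -0.00) differ between libraries.

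Several circadian clock transcripts were higher at the metabolic end of the score in Flox, Nr1d1, Dbp and Ciart among them, while Arntl and Cry1 were lower there. In the clock, BMAL1 (Arntl) and CLOCK activate genes through E-boxes, among them the repressors of the Per and Cry families, REV-ERB alpha and beta (Nr1d1, Nr1d2) and the output factor Dbp. REV-ERB proteins in turn repress Arntl through ROR elements, and DBP, TEF and HLF bind D-boxes. Nr1d1 stood in KO at 49.0 CPM in metabolic-high (44.1 to 54.4, 355 UMIs) and 43.6 CPM in Fgf14-high barcodes, a log2 ratio of 0.17. In Flox it stood at 71.6 CPM (63.3 to 80.6, 272 UMIs) and 29.5 CPM, a log2 ratio of 1.28. Dbp stood at 34.4 and 25.2 CPM in KO (0.44) and at 96.1 and 39.6 CPM in Flox (1.28). Ciart, a repressor of the clock, stood at 23.9 and 21.5 CPM in KO (0.15) and at 36.1 and 15.5 CPM in Flox (1.21). In Flox these 3 genes were highest at the metabolic end, lower in the middle and lowest at the Fgf14-high end.

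Arntl lay the other way in Flox. It stood at 6.58 CPM in metabolic-high (25 UMIs) and 19.2 CPM in Fgf14-high barcodes there, a ratio of 0.342 (0.215 to 0.525, log2 ratio -1.52). In KO it stood at 4.84 CPM (35 UMIs) and 4.08 CPM, with a ratio of 1.18 (0.676 to 2.12). Arntl was more abundant in other-lineage barcodes, at 27.7 CPM in KO and 44.4 CPM in Flox. The repressors Bhlhe40 and Bhlhe41, which compete at E-boxes, had log2 ratios of 0.42 and -0.05 in KO and of 0.76 each in Flox. Cry1 stood at 37.9 CPM in metabolic-high and 47.7 CPM in Fgf14-high barcodes of Flox (-0.33), and Per1 and Per2 had -0.03 and 0.11 there. Hlf had -0.26 in KO and 0.42 in Flox, whereas Tef had 0.30 and 0.37.

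Of 18 clock genes, 6 in KO and 10 in Flox stepped down from the metabolic-high tertile through the middle to the Fgf14-high tertile, and 3 in KO and 4 in Flox stepped up. Over all counted genes, 29.9% in KO and 25.2% in Flox stepped down and 19.7% and 22.3% stepped up. The list had a median log2 ratio of 0.17 in KO (13 of 17 above 0) and 0.37 in Flox (11 of 17). At 1.5-fold, 0 of 17 were higher in KO and 6 of 17 in Flox, beside 3.58% and 3.72% of all genes. The sources used here give no time of day for the tissue, and the difference between libraries was not tested.

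**Figure D4:**
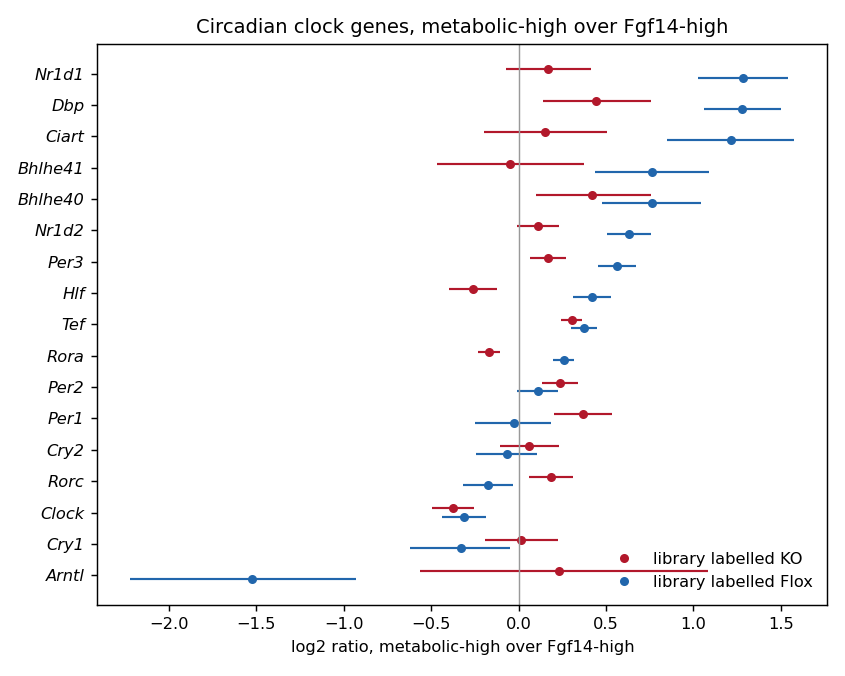
Log2 ratio of metabolic-high over Fgf14-high barcodes (x axis) for 17 circadian clock genes (y axis), in the library labelled KO (red) and the library labelled Flox (blue); lines are exact 95% binomial intervals of the ratio. Nr1d1, Dbp and Ciart lie at 0.17, 0.44 and 0.15 in KO and at 1.28, 1.28 and 1.21 in Flox, and Arntl at 0.23 in KO and -1.52 in Flox.

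The start-site sequences below show where the letters of the clock motifs stand in 3 of these genes, 1 for each kind of motif named above: Ciart and Arntl, far apart in Flox, and Per3. They are taken from RefSeq on GRCm38.p6 and printed 5′ to 3′ on the strand of the gene. Capitals mark the E-box CACGTG in the 250 bases before the start of Ciart (chr3:95882229-95882478, minus strand), the D-box TTATGTAA in those of Per3 (chr4:151044666-151044915, minus strand), and the core of the ROR element, TAGGTCA, in 30 bases just after the start of Arntl (chr7:113207531-113207560, plus strand).
Ciart: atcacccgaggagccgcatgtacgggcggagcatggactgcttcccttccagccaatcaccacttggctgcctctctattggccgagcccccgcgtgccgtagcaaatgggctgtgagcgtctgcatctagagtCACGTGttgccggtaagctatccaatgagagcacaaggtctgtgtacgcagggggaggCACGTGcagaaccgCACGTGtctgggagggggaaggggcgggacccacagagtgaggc
Per3: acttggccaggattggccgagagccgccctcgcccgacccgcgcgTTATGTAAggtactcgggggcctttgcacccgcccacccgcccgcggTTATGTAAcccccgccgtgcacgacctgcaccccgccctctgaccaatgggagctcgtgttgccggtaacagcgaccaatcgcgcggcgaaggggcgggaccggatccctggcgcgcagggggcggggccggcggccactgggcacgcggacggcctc
Arntl: aggcagaaagTAGGTCAgggacggaggtgc
Ciart held 3 E-boxes and Per3 held 2 D-boxes. Both strands were searched. Of 32851 RefSeq start windows, 6.02% held an E-box and 0.819% a D-box in the 250 bases before the start, and 2.61% held the ROR core anywhere in 300 bases. These shares are per window, whereas a clock gene was counted if any of its windows matched, so the 2 measures are unlike. Of the 15 clock genes with a window, 5 held an E-box (Bhlhe41, Ciart, Cry1, Per1 and Tef), 1 a D-box (Per3) and 1 the ROR core (Arntl). The Per3 and Arntl sequences printed are thus those of the only clock genes with these letters. The window of Arntl was picked because it holds them. A match is a description of letters, not of binding. Per3, a period gene, stood at 264 CPM in metabolic-high and 235 CPM in Fgf14-high barcodes of KO (log2 ratio 0.17), and at 318 and 215 CPM in Flox (0.56).

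Ucp1 was sparse at every point of the score. Metabolic-high barcodes held 231 Ucp1 UMIs in KO (31.9 CPM, 27.9 to 36.3) and 261 in Flox (68.7 CPM, 60.6 to 77.5), a log2 ratio of -1.11. In Fgf14-high barcodes the gene stood at 28.4 CPM in KO and 32.4 CPM in Flox (-0.19), and in the middle tertile at 35.2 and 69.2 CPM. The level was lower in KO in the metabolic-high and middle tertiles, and the Fgf14-high tertiles lay within counting error of each other. With each barcode thinned to 1000 UMIs, 2.84% of metabolic-high barcodes in KO (66 of 2326) and 6.95% in Flox (91 of 1310) had a Ucp1 UMI, after 215 and 30 shallower ones were left out. The unthinned shares were 7.79% and 14.9%. Other-lineage barcodes, which should lack the gene, gave 0.599% in KO (6 of 1002) and 1.58% in Flox (21 of 1327) after the same thinning, with 211 and 432 shallower ones left out. Their unthinned shares were 1.24% and 3.13%, at median depths of 1817 and 1531 UMIs. These barcodes were chosen to have no Ppara or Cidea UMI, so their Ucp1 shares may be low by that choice.

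Most other genes of heat production lay closer between libraries than Ucp1. In metabolic-high barcodes, the 19 measured genes of the thermogenesis list had a median log2 ratio of KO over Flox of 0.02. Ppargc1a, the coactivator PGC-1 alpha, stood at 697 CPM in KO and 686 CPM in Flox, and Adrb3, the beta-3 adrenergic receptor, at 107 and 106 CPM. Gk, glycerol kinase, stood at 213 CPM in KO and 358 CPM in Flox (-0.75), although Fgf14-high barcodes had 220 and 201 CPM. Cox8b, a cytochrome oxidase subunit, stood at 205 CPM in KO and 142 CPM in Flox (0.53).

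For the genotypes within metabolic-high barcodes, the targeted gene comes first, and it went against its label. Nfe2l1 (chr11:96817414-96829968, mm10, minus strand) had 2360 UMIs in the library labelled KO (326 CPM) and 458 in the library labelled Flox (121 CPM), a ratio of 2.7 (2.4 to 3.0). The middle tertile had 318 CPM in KO and 127 CPM in Flox, and the Fgf14-high tertile 306 and 131 CPM. The counts come from 3' tags, and the sources used here do not say where the deletion lies, so they may or may not read the deleted part. Every direction below rests on the labels KO and Flox.

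By size, 113 of 10122 genes (1.12%) were at least 2-fold higher in the library labelled KO and 162 (1.6%) at least 2-fold lower, in metabolic-high barcodes. In Fgf14-high barcodes 42 of 10376 (0.405%) were higher and 215 (2.07%) lower. The summed UMIs given above differ between these groups, and their part in the counts was not tested. In metabolic-high barcodes 47.5% of all genes lay above 0, against 42.8% in Fgf14-high ones. When genes less abundant here than in barcodes outside the gate were left out, 69 were higher and 66 lower. Skeletal muscle markers were among the lower genes, with a median log2 ratio of -1.60 (8 of 9 at least 1.5-fold lower, beside 6.92% of all genes), as were endothelial markers at -0.93 (7 of 8) and macrophage/monocyte markers at -0.61 (3 of 6). In Fgf14-high barcodes the muscle and endothelial lists had -1.50 and -0.81. Their part in the counts above was not tested.

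The gene furthest apart was Kng1 (chr16:23057865-23082078, mm10, plus strand), which encodes a kininogen: 655 UMIs in KO (90.5 CPM) and 0 in Flox. Against a floor of 3 UMIs it was at least 115-fold higher in KO. Kng1 has a close copy, Kng2, and how reads were divided between them is unknown. Ehhadh, which acts in the peroxisomal oxidation of fatty acids, stood at 226 CPM in KO and 66.1 CPM in Flox (log2 ratio 1.77), against 207 and 109 CPM in Fgf14-high barcodes (0.93). It lies near Kng1 on the same chromosome (chr16:21761287-21787807, mm10, minus strand). Whether position has a part in its ratio was not tested. Slc22a5, the carnitine transporter OCTN2, stood at 545 CPM in KO and 228 CPM in Flox (1.25). Cyp4b1, a cytochrome P450, stood at 489 CPM in KO and 168 CPM in Flox (1.54).

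Among the other genes furthest up, Cebpb, an early adipogenic factor, stood at 142 CPM in KO and 50.5 CPM in Flox (1.48). Tle3, a corepressor that opposes Prdm16 in mouse adipocytes, stood at 119 CPM in KO and 47.6 CPM in Flox (1.32), against 84.4 and 65.2 CPM in Fgf14-high barcodes (0.37). Tmem132b, which encodes a membrane protein, stood at 159 CPM in KO (150 to 168) and 41.1 CPM in Flox (34.9 to 48.0), a log2 ratio of 1.95, and at 114 and 80.1 CPM in Fgf14-high barcodes (0.51). Ccn1 (1.42), a matricellular protein gene, and Slc17a9 (1.36), a vesicular nucleotide transporter, were also among them, with Nfe2l1 and Zfp949. Zfp949 (1.54) stood at 128 CPM in KO and 38.8 CPM in Flox in other-lineage barcodes as well. It lies at chr9:88548020-88571061 (mm10, plus strand).

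Genes lower in the library labelled KO included several of the clock output. Dbp stood at 34.4 CPM in KO and 96.1 CPM in Flox (log2 ratio -1.48), Hlf at 125 and 301 CPM (-1.27) and Bhlhe41 at 15.6 and 38.2 CPM (-1.29). In Fgf14-high barcodes their log2 ratios were -0.65, -0.59 and -0.47. The clock list had a median of -0.28 where 5 of 17 genes were 1.5-fold or more lower (6.92% of all genes) and 2 that much higher (5.3%). The 2 higher ones were Per1, a period gene, at 115 CPM in KO and 67.9 CPM in Flox (0.75), and Cry1, a cryptochrome, at 62.9 and 37.9 CPM (0.73).

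Rorb, a nuclear receptor gene, had the most negative ratio of the named genes, at 5.94 CPM in KO (43 UMIs) and 29.7 CPM in Flox (113 UMIs), a log2 ratio of -2.31. Other-lineage barcodes had 35.7 CPM in KO and 30.3 CPM in Flox of it. Adam12, a metalloprotease of the cell surface, stood at 202 CPM in KO (191 to 212) and 487 CPM in Flox (465 to 510), a log2 ratio of -1.27. Sgk2, a kinase related to SGK1, stood at 27.9 and 72.9 CPM (-1.38), and Bend7 at 24.9 and 61.1 CPM (-1.29). Gys2 (-1.19), the liver form of glycogen synthase, Myh14 (-1.43), a non-muscle myosin, and Mras (-1.22), a RAS-related GTPase, had 70 UMIs or fewer in KO, and Mras was more abundant in other-lineage barcodes (29.2 CPM in KO and 27.5 CPM in Flox). Trim43c (-1.36) has near copies, so its counts are uncertain. It lies near Zfp949, at chr9:88839164-88848190 (mm10, plus strand), and the part of position in the ratios of these 2 genes was not tested. Scd1, stearoyl-CoA desaturase, stood at 13.3 CPM in KO and 41.1 CPM in Flox (-1.63), but 89 of its 156 UMIs in Flox lay in 1 barcode. Without that barcode its level in Flox was 17.6 CPM and the log2 ratio -0.41.

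**Figure D5:**
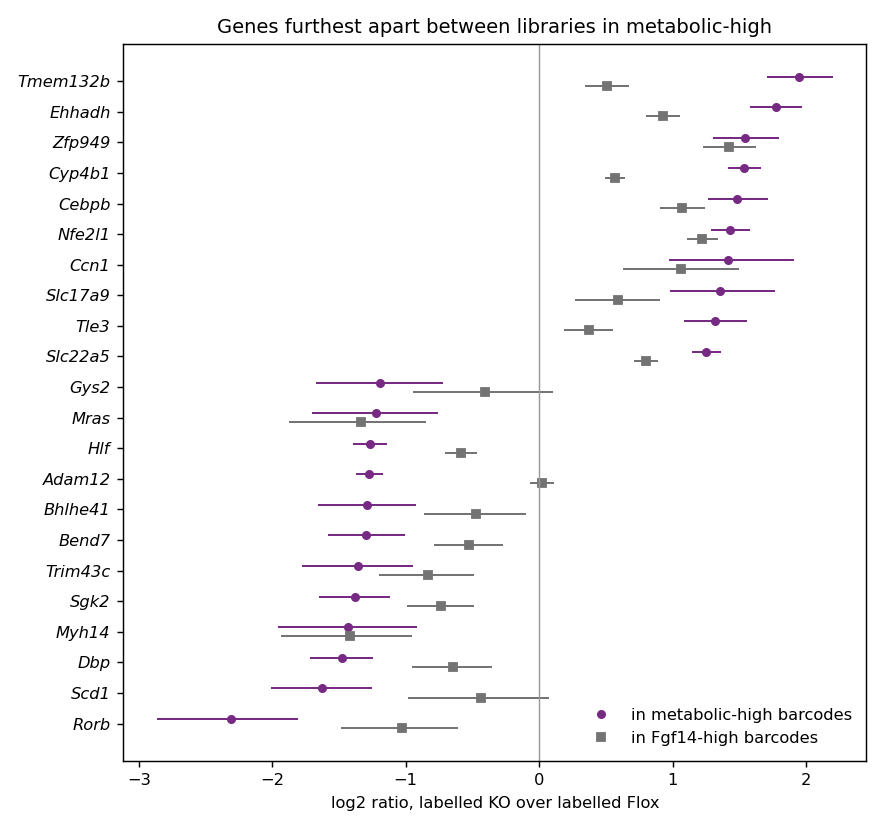
Log2 ratio of the library labelled KO over the library labelled Flox (x axis) for named genes among those furthest apart in metabolic-high barcodes (y axis; Kng1, with 0 UMIs in Flox, is left out), in metabolic-high barcodes (purple circles) and in Fgf14-high barcodes (grey squares); lines are exact 95% binomial intervals. Tmem132b is at 1.95 and 0.51, and Adam12 at -1.27 in metabolic-high and 0.02 in Fgf14-high barcodes.

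Proteasome genes, the known targets of NFE2L1, were mostly lower in metabolic-high barcodes of the library labelled KO. The median log2 ratio of 34 subunits and helpers was -0.32, beside -0.02 over all genes, with 5 of 34 above 0 (47.5% of all genes). At 1.5-fold, 7 were lower (6.92% of all genes) and 1 was higher (5.3%). Psmd1, a scaffold of the 19S cap, stood at 66.0 CPM in KO and 145 CPM in Flox (-1.13), and Psmd14, its deubiquitinase, at 63.0 and 120 CPM (-0.93). Psma5, of the 20S core, stood at 20.6 and 36.6 CPM (-0.83). Psmb4, another core subunit, stood at 27.5 CPM in KO and 16.8 CPM in Flox (0.70). In Fgf14-high barcodes the same list had a median of -0.50 with 14 of 34 at least 1.5-fold lower and 0 higher (7.53% and 2.68% of all genes), and the difference between the tertiles was not tested.

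Fatty acid synthesis genes had a median log2 ratio of KO over Flox of 0.32 in metabolic-high barcodes, where 4 of 14 were 1.5-fold or more higher (5.3% of all genes) and 3 that much lower (6.92%), and 0.05 in Fgf14-high barcodes. One of the 3 lower genes is Scd1, whose log2 ratio of -0.41 without 1 barcode is under that fold. Acaca (chr11:84129672-84401651, mm10, plus strand) stood at 1128 CPM in KO and 672 CPM in Flox (0.75). Elovl6, a fatty acid elongase, stood at 534 and 318 CPM (0.75), Slc25a1, the citrate carrier, at 21.0 and 12.9 CPM (0.69), and Elovl5, another elongase, at 42.6 and 27.9 CPM (0.60, with 100.3 and 115 CPM in other-lineage barcodes). Me1, the malic enzyme that makes NADPH, stood at 19.8 and 50.8 CPM (-1.36). Fatty acid oxidation had a median of 0.17 (16 of 22 above 0), with Ehhadh and the thioesterase gene Acot2 (33.9 CPM in KO and 15.8 CPM in Flox) at least 2-fold higher. Triglyceride assembly had 0.12, with the acyl-CoA synthetase gene Acsl1 at 3435 CPM in KO and 2229 CPM in Flox (0.62). The respiratory chain had 0.07, glycolysis -0.09, and the TCA cycle -0.04.

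Lipolysis genes had a median of 0.06. Within that list G0s2, which restrains ATGL, the first lipase of lipolysis, stood at 712 CPM in KO and 307 CPM in Flox (1.21). Insulin signalling had a median of -0.16 with 2 of 21 genes at least 1.5-fold higher (5.3% of all genes): Foxo1, a transcription factor restrained by insulin, at 866 CPM in KO and 522 CPM in Flox (0.73), and the receptor substrate gene Irs2 at 159 and 99.5 CPM (0.68). Among adipogenic factors Cebpa stood at 109 CPM in KO and 63.2 CPM in Flox (0.78), beside a list median of 0.05.

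All 14 measured interferon and immune GTPase genes lay above 0 (47.5% of all genes), with a median of 0.63 and 8 of them at least 1.5-fold higher in KO (5.3%). Igtp, an immunity-related GTPase, stood at 67.2 CPM in KO and 30.5 CPM in Flox (1.13), and Stat2, a signal transducer of interferons, at 155 and 86.1 CPM (0.84). Other-lineage barcodes had more of both, at 84.0 and 233 CPM in KO and at 103 and 243 CPM in Flox. The gate removed barcodes by other genes of this response, leaving 6080 of 7596 barcodes in KO and 5583 of 7168 in Flox at that step, so the list is not independent of the rule. Outside the gate all 6 of the gate's interferon-linked genes were lower in KO, among them Iigp1, at 808 CPM in KO and 1259 CPM in Flox, and Gbp11, at 61.5 and 139 CPM. In Fgf14-high barcodes, which passed the same gate, its median was 0.35. Neuron-type and cell adhesion genes had a median of -0.55, with the splicing factor gene Rbfox1 at 84.3 CPM in KO and 256 CPM in Flox (-1.60).

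For some genes the ratio of KO over Flox was not alike at the 2 ends of the score. Of 8261 genes with at least 100 UMIs in each tertile, 474 had a higher ratio in metabolic-high than in Fgf14-high barcodes and 431 a lower one, counted where the intervals of the 2 ratios did not overlap and 1 group reached 20 CPM. The 6 furthest apart each way included Rorb and Scd1, given above. The Scd1 difference was -1.19, and 0.02 without the 1 barcode that held most of its UMIs in Flox. Adam12 had -1.27 in metabolic-high and 0.02 in Fgf14-high barcodes, where KO had 313 CPM and Flox 308 CPM. In KO the metabolic-high level was the lowest of the 3 tertiles, with 273 CPM in the middle, and in Flox the Fgf14-high level was, with 493 CPM in the middle. Nr1d1 had -0.55 and 0.57. Tmem132b had 1.95 and 0.51, Cracr2b, a calcium channel regulator, 1.22 and -0.15, and Relb, an NF-kappa-B subunit, 0.77 and -0.58. The potassium channel gene Kcnk2 had -0.47 and -1.81. Of the 102 Creb5 UMIs in Fgf14-high barcodes of KO, 57 lay in 1 barcode, and without it the difference of -1.18 between the ratios was -0.01. Creb5 (-0.71 and 0.47) and Prkg1 (-1.12 and 0.00) were far more abundant in other-lineage barcodes, at 639 CPM in KO and 483 CPM in Flox for Creb5 and 2085 and 2077 CPM for Prkg1. None of these differences was tested.

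Within the metabolic-high range the direction between libraries was the same along the score for Dgat2, Nfe2l1, Ehhadh, Dbp and Adam12, but not for every gene. In the lowest, middle and nearest parts of the range by score, Dgat2 stood at 3528, 3063 and 2774 CPM in KO and at 3207, 2869 and 2591 CPM in Flox. Nfe2l1 stood at 336, 332 and 312 CPM in KO and at 129, 123 and 114 CPM in Flox over the same parts. Ehhadh stood at 232, 220.3 and 227 CPM in KO and at 64.3, 62.3 and 70.3 CPM in Flox. Dbp stood at 37.5, 34.6 and 31.7 CPM in KO and at 112, 101.0 and 81.9 CPM in Flox. Adam12 was lowest at the extreme end in each library, at 157 CPM in KO and 418 CPM in Flox. The direction changed for Acot11, at 276, 254 and 248 CPM in KO and at 241, 300 and 252 CPM in Flox. It also changed for Aspg, at 329, 227 and 209 CPM in KO and at 317, 191 and 221 CPM in Flox.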

How the data were processed

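The files deposited by the authors hold whole-number counts of UMIs for each gene in each barcode. Per the file headers, Cell Ranger 5.0.0 wrote them, and the submitters' processing notes name mm10. Annotation and intron handling: not given in the sources used here. Gene positions came from GENCODE vM21 by gene ID. The members, gene lists and comparisons were chosen with earlier results of these data known. The rule was applied to all barcodes and no doublets were removed; leaving out the highest Scrublet scores (1358 barcodes in KO and 2085 in Flox, scanpy 1.11.5) was an alternative. UMIs were summed per tertile and library. Ratios used 0.5 UMI added and genes with at least 50 UMIs, and 1 library per genotype allowed no test. Calls were by fold (2-fold, or 1.5-fold for lists). Named genes between genotypes or tertiles had at least 100 UMIs, at least 20 CPM in the higher group, a CPM there not below that outside the gate, and at least 1.5-fold. For the difference of ratios they had at least 100 UMIs in each tertile, 20 CPM in 1 group and intervals that did not overlap, with no condition outside the gate. The 12 furthest apart each way between genotypes or tertiles, and the 6 furthest apart each way in the difference of ratios, were named, except 1 gene that is not reported here. From each list, the 2 members furthest up and down could be named; other list genes, and Cxcl13, Sult5a1 and Lrriq3, were chosen after their values were seen. Mitochondrial, ribosomal protein, haemoglobin, sex-linked and clone-type genes were left out. Genes of the score and the gate were left out of these choices too, and of the list medians and the counts between tertiles. Intervals were exact Poisson (levels), exact binomial (ratios) and Clopper-Pearson (shares). The counting was tested on simulated data. TMM factors of edgeR (R 4.3.3) were an alternative scaling. The scripts ran in Python 3.11.15 with SciPy 1.17.1, NumPy 2.4.6 and matplotlib 3.10.9.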

Additional observations from a re-analysis of the deposited data

Results flagged for a closer look

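Of the genes named for differences between tertiles or genotypes, lists aside, 2 were at least 1.5-fold apart in opposite directions at the 2 ends of the score. Others, such as Nr1d1 (-0.55 and 0.57) and Relb (0.77 and -0.58), also changed direction but did not reach that fold at both ends. None of this was tested. Piwil2, a Piwi-family gene, had a log2 ratio of KO over Flox of 1.17 in metabolic-high barcodes (26.8 CPM in KO and 11.8 CPM in Flox) and of -0.67 in Fgf14-high barcodes (16.9 and 26.9 CPM). Rsph10b, a radial spoke gene, had 0.90 in metabolic-high barcodes (22.8 CPM in KO and 12.1 CPM in Flox) and -0.72 in Fgf14-high barcodes (11.9 and 19.6 CPM).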

How the results depend on the processing

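No paired analysis was possible because each genotype had 1 library, so no replicate could be left out either. The share ratio of 1.74 was 1.51 with barcodes thinned to 1000 UMIs, 2.06 with sixths of the score, and 1.88 without barcodes within 0.25 of a boundary, an alternative chosen after seeing the data. Tertiles per library fix the shares, so they give no ratio. Genes at least 2-fold higher in KO (113) numbered 57 with thinning, 220 with at least 20 UMIs, and 69 without genes less abundant than outside the gate. Lower ones (162) numbered 86, 365 and 66 under the same 3 settings and 106 with sixths. Genes at least 2-fold higher than in Fgf14-high barcodes in both libraries (2) numbered 0 with thinning, with tertiles per library, with none of the other-lineage genes detected, or without genes less abundant than outside the gate. They numbered 1 without Pmepa1, 4 without Dgat2 or with the mean CPM over barcodes, 6 with sixths, 8 without barcodes near a boundary and 11 with at least 20 UMIs. Lower ones (1) numbered 5 with at least 20 UMIs and 0 with thinning, with tertiles per library, without Dgat2, with Scrublet or with at most 5% mitochondrial UMIs. The Nfe2l1 ratio stayed above 2.5 in each alternative run. Of 780 further values, 710 stayed within the counting interval of the main value and 65 moved outside it. For list medians the median half-width of the intervals of single genes was used in its place. That is wider than the counting error of a median over many genes, so staying within it says little for the lists. Reversals were the Scd1 difference between tertiles (-1.19), at 0.37 with thinning, 0.14 with at most 5% mitochondrial UMIs and 0.42 with none of the other-lineage genes, that of Creb5 (-1.18) at 0.51 with the last setting, and the cholesterol list median (-0.21) at 0.072 with sixths; the cause was not tested. TMM factors moved the median of all genes to 0.04.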
